A study of Mus musculus with 4 samples.

Results

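The CC chemokine genes Ccl2, Ccl3, Ccl4, Ccl5, Ccl6, Ccl7, Ccl8, Ccl9, Ccl11 and Ccl20 were followed in 4 mouse mammary tumours, with 1 Affymetrix mouse array for each tumour. All probe sets whose only annotated gene symbol was one of these 10 names were taken, which gave 12 probe sets of 45037. Ccl6 and Ccl9 had 2 probe sets each, and 10 of the 12 lay above the filter on dim probe sets, so that 8 genes were tested among 13331. The tumours grew in nude mice, which lack a thymus and most mature T cells, after transplantation of Eph4 cells, an established mouse mammary epithelial line. In the 2 tumours labelled Eph_EN the cells had been transduced with ETV6-NTRK3, a fusion oncogene with the kinase domain of a neurotrophin receptor. In the 2 tumours labelled Eph_EN_DN the same kind of cells carried ETV6-NTRK3 together with TAM67, which blocks c-Jun in a dominant negative way; c-Jun is a subunit of the transcription factor AP-1. The sources used here do not give the age of the hosts or whether the transduced cells were a clone or a pool. The comparison addressed how far tumour formation by the fusion runs through AP-1.

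CC chemokines are small secreted proteins with adjacent cysteines near the amino terminus, and they draw leukocytes along a gradient through G protein-coupled receptors. In mammary tumours they are known as products of tumour cells, fibroblasts and macrophages that bring monocytes and other leukocytes in from the blood. AP-1 and NF-kB are well known regulators of several of their promoters. The arrays read whole tumours, so that signal from the mouse graft and from the mouse host cannot be told apart, and neither can fewer cells of a type and less RNA per cell.

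Ccl8, a chemokine of tissue macrophages that in mice acts on Ccr8, fell in Eph_EN_DN tumours, with 1.97-fold more signal in Eph_EN, and it was the single member that passed the test. The other 7 tested members had negative differences too, from -0.15 for Ccl9 to -1.41 for Ccl11, and none of them passed. Of all genes tested, 47.8% had negative differences. Ccl2 and Ccl6 were lower in both Eph_EN_DN tumours by more than the spread within either group, at -0.44 and -0.45. The other Ccl6 probe set was at -0.12, with groups that overlapped. Ccl12, the next gene to Ccl8 on chromosome 11, was at 0.08. The receptor Ccr2 stood at 0.66 and did not pass (adjusted p = 0.330), and its other probe sets were at 0.60, 0.08 and 0.02. Every difference is given as Eph_EN_DN minus Eph_EN, in log2(intensity + 16), over 2 tumours a group. Adjusted p-values come from a limma fit of all 13331 genes.

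The promoter table held 5 of the 10 members (Ccl3, Ccl6, Ccl8, Ccl9 and Ccl20). The 250 bases before each start were searched on both strands for the AP-1 letters TGANTCA, for the STAT letters TTCNNNGAA and for the NF-kB consensus, and on the gene's own strand for the TATA box letters TATAAA. The 150 bases before the start are shown 5′ to 3′ for Ccl8, the member that fell, for its neighbour Ccl12, and for Ccl9, the only one of the 5 with a match to the AP-1 letters. Capitals mark the matches, and the sequences are RefSeq's.
Ccl8, GRCm38.p6 chr11:82115035-82115184, + strand: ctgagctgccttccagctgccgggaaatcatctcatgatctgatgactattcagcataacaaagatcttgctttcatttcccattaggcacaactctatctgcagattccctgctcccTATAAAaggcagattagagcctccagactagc
Ccl12, GRCm38.p6 chr11:82101695-82101844, + strand: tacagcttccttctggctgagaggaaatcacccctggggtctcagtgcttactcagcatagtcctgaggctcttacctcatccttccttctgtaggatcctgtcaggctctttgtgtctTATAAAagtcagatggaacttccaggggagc
Ccl9, GRCm38.p6 chr11:83578637-83578786, - strand: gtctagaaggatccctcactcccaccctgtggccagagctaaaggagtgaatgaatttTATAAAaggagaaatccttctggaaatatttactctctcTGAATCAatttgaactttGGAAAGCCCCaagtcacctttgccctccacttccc

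In Ccl8 and in Ccl12 the only match was TATAAA, whose first base lay 32 and 31 bases before the start. The Ccl9 window held TATAAA from base 92 before the start, the AP-1 letters TGAATCA from base 53 and an NF-kB match from base 35. Ccl20 had an NF-kB match from base 80 before its start, and Ccl3 and Ccl6 had no match. Of 32851 windows of the same length, 6.75% held the AP-1 letters, 7.02% the STAT letters, 3.90% the NF-kB consensus and 7.59% the TATA letters. A match is a description of the letters in this window, and no match says only that they are not in it. The AP-1 letters allowed any base in the middle, which is A in Ccl9, and the 6.75% counts any middle base too. The Ccl9 match therefore does not show an AP-1 site.

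Ccl2, Ccl7, Ccl8 and Ccl11 form the group of monocyte and eosinophil attractants. Ccl8 read 1942 and 1644 intensity units in Eph_EN tumours 1 and 2, and 849 and 953 in Eph_EN_DN tumours 1 and 2. The groups did not overlap, and the gap between them, 0.78 on the log2 scale, was larger than the range within either group (0.24 in Eph_EN and 0.16 in Eph_EN_DN). The means were 1793 ± 211 and 901 ± 73.9 units (SD, n = 2), a difference of -0.98 ± 0.19 (SE) with a 95% interval from -1.39 to -0.57 and an adjusted p of 0.0311. Over the 15 alternative fits the difference ran from -1.10 to -0.86, with adjusted p up to 0.339. The shared direction is no separate evidence. Other filters, probe set rules and variance models reused the same single Ccl8 probe set and gave the same difference. Leaving out 1 tumour cannot reverse a gene whose groups do not overlap. Ccl8 missed the threshold in 6 of the 15, among them the replicate block, a fit that takes tumour number as a block (adjusted p = 0.218). Of these, 5 were the fits without Eph_EN tumour 1 (-0.86, adjusted p = 0.0576), Eph_EN_DN tumour 1 (-0.90, adjusted p = 0.310) or Eph_EN_DN tumour 2 (-1.06, adjusted p = 0.171), with quantile normalization (adjusted p = 0.0548) and without the intensity trend in the variance (adjusted p = 0.339).

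Ccl2, the main ligand of Ccr2 and the best known attractant of inflammatory monocytes, read 448 and 441 units in the Eph_EN tumours and 337 and 311 in the Eph_EN_DN tumours. Both Eph_EN_DN tumours lay below both Eph_EN tumours, with a gap of 0.37 against ranges of 0.02 and 0.11 within the groups. The difference was -0.44 ± 0.21 (SE), with a 95% interval from -0.88 to 0.01 and an adjusted p of 0.517. Leaving out single tumours moved it only between -0.49 and -0.38. Ccl7, another Ccr2 ligand, read 96.3 and 101 units in Eph_EN and 96.7 and 53.8 in Eph_EN_DN tumours. Here Eph_EN_DN tumour 1 lay between the Eph_EN tumours and only Eph_EN_DN tumour 2 was low. The difference of -0.37 (adjusted p = 0.664) became -0.03 without Eph_EN_DN tumour 2.

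Ccl11, eotaxin, a ligand of Ccr3 that attracts eosinophils, was at 55.4 and 116 units in Eph_EN and at 42.4 and 6.92 in Eph_EN_DN tumours. The groups did not overlap, but the ranges within them, 0.88 and 1.35 on the log2 scale, were larger than the gap of 0.29. Its difference of -1.41 ± 0.40 (SE, 95% interval -2.25 to -0.56) was farther from 0 than that of any other tested member, and it did not pass (adjusted p = 0.189). It passed without Eph_EN tumour 1 (-1.85, adjusted p = 0.0252) and without Eph_EN_DN tumour 1 (-2.08, adjusted p = 0.0268), and was at -0.96 without Eph_EN tumour 2 and -0.73 without Eph_EN_DN tumour 2. The size also moved with the pseudocount, from -2.13 with 1 to -0.75 with 64, since Eph_EN_DN tumour 2 lay far below the array medians of 35.6 to 40.8 units.

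**Figure D1:**
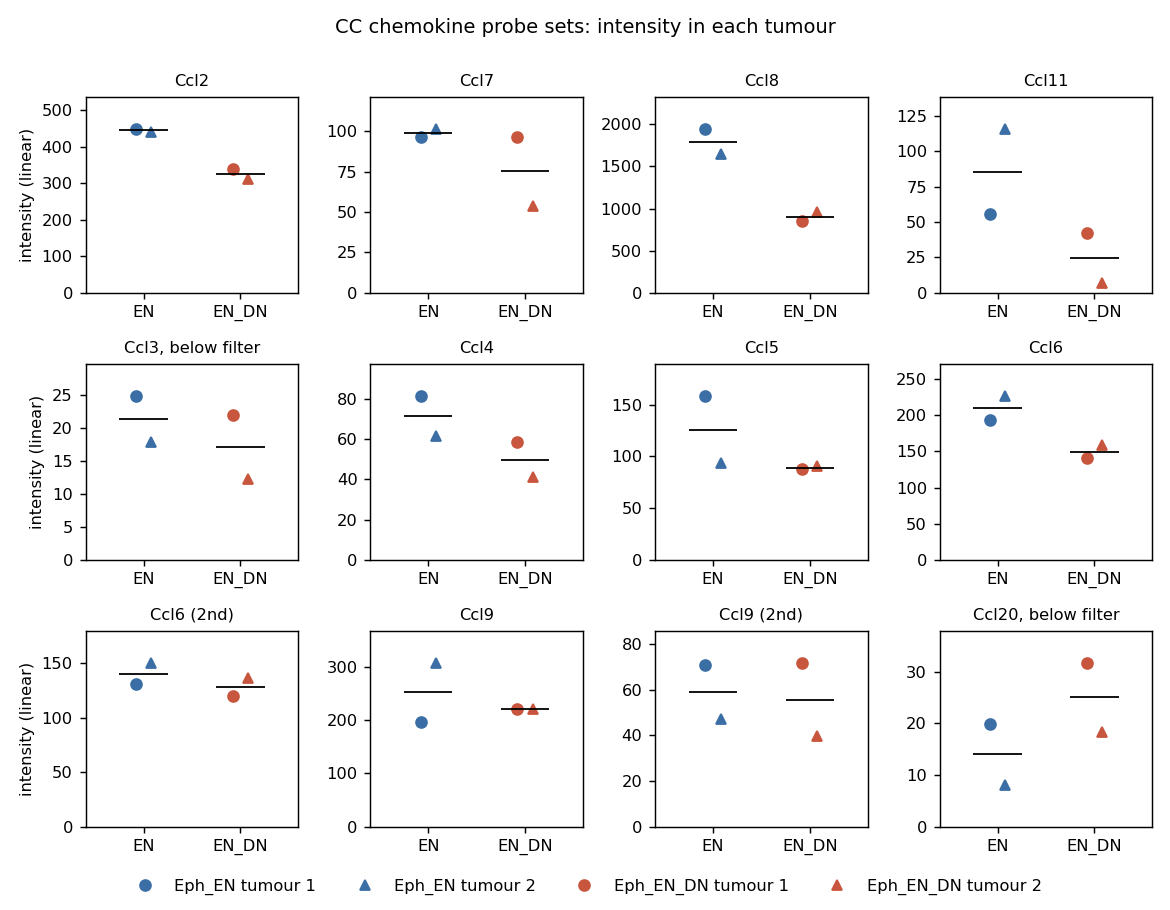
Linear intensity of each of the 12 probe sets in each tumour, with circles for tumour 1 and triangles for tumour 2 of a group and a bar at the group mean (n = 2). Ccl8 lies at 1942 and 1644 units in Eph_EN against 849 and 953 in Eph_EN_DN tumours, while Ccl5, Ccl7 and the first Ccl9 probe set each have 1 tumour apart from the other 3.

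Ccl3, Ccl4 and Ccl5 attract macrophages, T cells and NK cells. Ccl4, a macrophage inflammatory protein, read 81.6 and 61.5 units in Eph_EN and 58.8 and 41.1 in Eph_EN_DN tumours. The groups were separated by only 0.05 on the log2 scale, less than the range within either (0.33 and 0.39), and the difference was -0.41 ± 0.25 (adjusted p = 0.636). Ccl5, which attracts T cells and monocytes, read 158 and 93.7 units in Eph_EN and 87.4 and 90.9 in Eph_EN_DN tumours. Only Eph_EN tumour 1 stood high, so that the difference of -0.40 (adjusted p = 0.626) was -0.06 without it. Ccl3 was under the filter on dim probe sets, at 24.8 and 17.9 units in Eph_EN and 22.1 and 12.3 in Eph_EN_DN tumours, with overlapping groups. In the fit without that filter Ccl3 was at -0.18, with a 95% interval from -1.03 to 0.67.

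Ccl6 and Ccl9 are Ccr1 ligands made by myeloid cells. The Ccl6 probe set used in the test, 1417266_at, read 194 and 227 units in Eph_EN and 141 and 159 in Eph_EN_DN tumours. The groups did not overlap, and the gap of 0.26 was larger than the ranges of 0.21 and 0.16 within them. The difference was -0.45 ± 0.21 (SE, 95% interval -0.90 to 0.01, adjusted p = 0.517). The other Ccl6 probe set, 1420249_s_at, whose suffix marks probes that can match more than 1 transcript, read 131 and 150 units in Eph_EN and 120 and 136 in Eph_EN_DN tumours. Its groups overlapped, and its difference was -0.12 (95% interval -0.59 to 0.36). Both Ccl6 probe sets gave a negative difference, and neither passed.

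Ccl9 read 198 and 308 units in Eph_EN and 222 and 221 in Eph_EN_DN tumours with probe set 1417936_at. Eph_EN tumour 2 alone was high, and the difference of -0.15 (adjusted p = 0.885) turned to 0.15 without it. The other Ccl9 probe set, 1448898_at, was at 70.9 and 47.1 units in Eph_EN and 71.7 and 39.8 in Eph_EN_DN tumours, a difference of -0.08. In both groups tumour 1 was the higher one with this probe set, and with 1417936_at Eph_EN tumour 2 was the higher one of its group. Ccl20, the CC ligand of Ccr6, which attracts dendritic cells and lymphocytes, was the 1 member with a positive difference. It was under the filter, with 19.9 and 8.14 units in Eph_EN and 31.7 and 18.4 in Eph_EN_DN tumours, and in the fit without the filter it was at 0.46 (95% interval -0.41 to 1.33). Its groups overlapped.

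**Figure D2:**
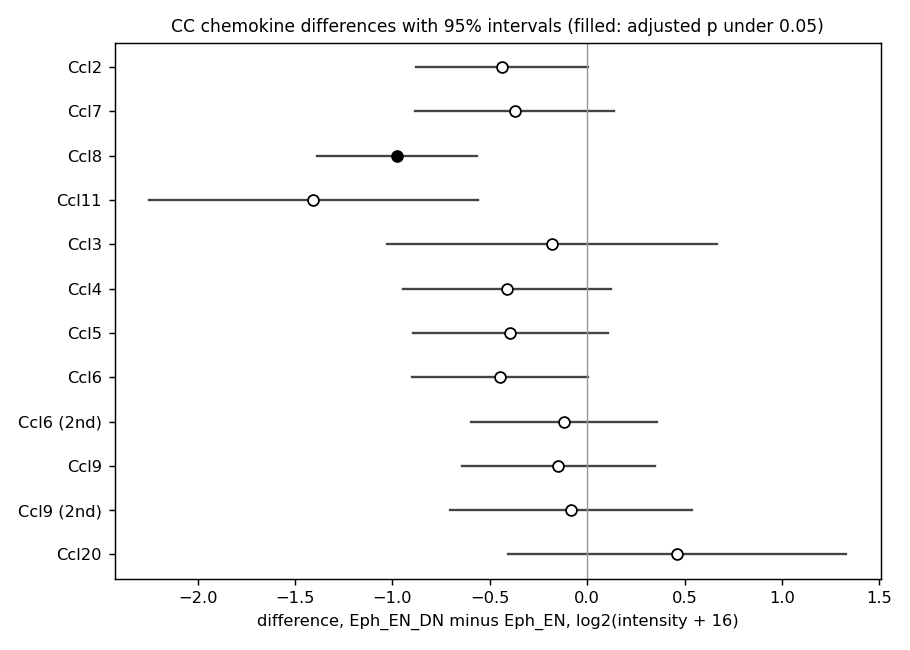
Difference between the groups for each probe set on the scale log2(intensity + 16), Eph_EN_DN minus Eph_EN, with 95% intervals from limma; filled points passed an adjusted p of 0.05. Ccl3 and Ccl20 come from the fit without the filter and the second Ccl6 and Ccl9 probe sets from the fit of every probe set. Only Ccl8 is filled, and the interval of Ccl11, from -2.25 to -0.56, is wider.

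As a family, 1 of the 8 tested members was called lower, where 0.420% of all genes tested were. With an unadjusted p under 0.05 there were 2 (Ccl8 and Ccl11), against 4.94% of all genes. Ccl11 stands in this count and the next, but it passed the filter on dim probe sets only through the Eph_EN tumours. Its mean log2(intensity + 16) was 6.60 in Eph_EN and 5.19 in Eph_EN_DN tumours. In 6 of the 8 (Ccl2, Ccl4, Ccl5, Ccl6, Ccl8 and Ccl11) both Eph_EN_DN tumours lay below both Eph_EN tumours, against 20.0% of all genes. All 8 had negative differences, against 47.8% of all genes. The median difference of the 8 was -0.43, and that of all genes was 0.02. Relative to the Eph_EN mean the median of the 8 stood at -0.01 and 0.01 in Eph_EN tumours 1 and 2 and at -0.40 and -0.55 in Eph_EN_DN tumours 1 and 2. These counts describe members that were chosen with results of these data known, and they leave out the 2 dim members.

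The 9 members on chromosome 11 lie in 2 neighbourhoods there, by the order of genes in the RefSeq table. One holds Ccl2, Ccl7, Ccl11, Ccl12, Ccl8 and Ccl1 in that order, and the other, 52 annotated genes away, holds Ccl5, Ccl9, Ccl6, Ccl3 and Ccl4. Differences in the Ccl2 neighbourhood ran from -1.41 (Ccl11) to 0.08 (Ccl12), and in the Ccl5 neighbourhood from -0.45 (Ccl6) to -0.15 (Ccl9). The differences in the Ccl2 neighbourhood thus spanned a wider range. Ccl12, a Ccr2 ligand in mice, read 434 and 465 units in Eph_EN and 580 and 387 in Eph_EN_DN tumours. It overlapped between the groups. Within an array, the log2 ratio of Ccl8 over Ccl12 was 2.12 and 1.79 in Eph_EN and 0.54 and 1.27 in Eph_EN_DN tumours, lower in both. The exact permutation test over the 4 tumours gave p = 0.333 (two-sided), the smallest it can give with 2 against 2. This ratio and that of Ccl2 over Ccr2 were chosen after their values were seen, and adjusted over both the p stays at 0.333.

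The other CC ligands were fixed as a list of 14, of which 8 were named on the array and 5 tested. Limma called 0 of the 5, and 0 had an unadjusted p under 0.05. For this list and those below, 658 of all 13331 genes tested had such a p and were lower, and 648 were higher. Ccl17 and Ccl22, the ligands of Ccr4, were at -0.47 and 0.19, Ccl25 at -0.21, Ccl28, a mucosal chemokine, at -0.23 and Ccl12 at 0.08. A further Ccl28 probe set was at 0.48, and a dim one of Ccl25, which was not tested, at -1.04. Ccl1, Ccl24 and Ccl27a were under the filter, at -0.55, -0.41 and 0.42. Ccl25 and Ccl28 thus had no common value across their probe sets.

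Among the receptors, Ccr2, through which monocytes respond to Ccl2, Ccl7 and Ccl12, read 340 and 411 units in Eph_EN and 735 and 492 in Eph_EN_DN tumours with the probe set tested. Both Eph_EN_DN tumours were the higher ones, opposite to its ligand Ccl2, with a difference of 0.66 ± 0.23 (SE, 95% interval from 0.17) and an adjusted p of 0.330. Another Ccr2 probe set read 297 and 442 units in Eph_EN and 846 and 368 in Eph_EN_DN tumours, and there only Eph_EN_DN tumour 1 was high. The remaining pair of Ccr2 probe sets was at 0.08 and 0.02. The log2 ratio of Ccl2 over Ccr2 was 0.38 and 0.10 in Eph_EN and -1.09 and -0.64 in Eph_EN_DN tumours (exact permutation p = 0.333, two-sided).

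Ccr1, the receptor of Ccl3, Ccl5, Ccl6 and Ccl9, was at -0.20 with groups that overlapped, and its second probe set at 0.23. Ccr6, the receptor of Ccl20, was at -0.19 and Ccr9 at -0.48. The other Ccr9 probe sets, all under the filter, were at 0.91, 0.86, 0.07 and -0.59. Limma called 0 of the 4 receptors tested, and 1 (Ccr2) had an unadjusted p under 0.05. Under the filter lay Ccr3, the receptor of Ccl11, with 21.4 and 25.4 units in Eph_EN and 3.54 and 3.78 in Eph_EN_DN tumours, and Ccr8, with 13.4 and 14.02 against 58.1 and 7.95. Ccr3 was at -1.0 in the fit without the filter (adjusted p = 0.561). Ccr4 (0.30), Ccr7 (-0.45), Ccr10 (-0.60) and Ccr1l1 (0.06) were also too dim to be tested.

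Atypical receptors bind chemokines without G protein signalling. Ackr2, which removes inflammatory CC chemokines, was at 0.18, and its other probe sets at 0.49 and 0.63. Ackr3, which takes up CXC ligands, read 240 and 205 units in Eph_EN and 321 and 428 in Eph_EN_DN tumours (0.70 ± 0.22, adjusted p = 0.265). Ackr1, the chemokine receptor of venules, was at 0.25, Ackr4 at -0.23 and Ccrl2 at -0.06. Limma called 0 of these 5 genes, and 1 (Ackr3) had an unadjusted p under 0.05.

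**Figure D3:**
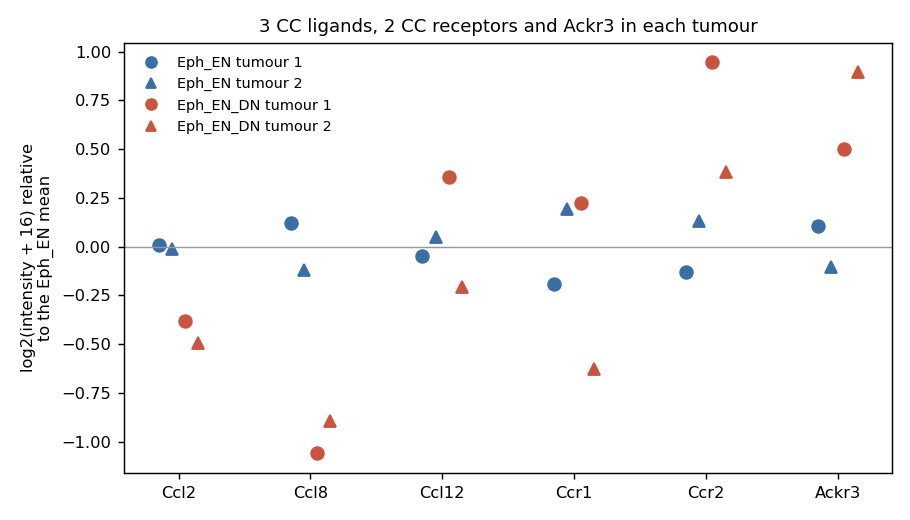
Level of 3 CC ligands, 2 CC receptors and Ackr3 in each tumour on the scale log2(intensity + 16), relative to the Eph_EN mean of the same gene (the line at 0). Ccl2 and Ccl8 lie below 0 in both Eph_EN_DN tumours, Ccr2 and Ackr3 above it, and Ccl12 and Ccr1 on either side.

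Of 19 genes of receptor signalling, limma called 0, and 3 had an unadjusted p under 0.05, all lower in Eph_EN_DN tumours (median -0.21). Gnai2, the inhibitory G protein subunit that chemokine receptors use, read 2005 and 2234 units in Eph_EN and 1271 and 1326 in Eph_EN_DN tumours (-0.70 ± 0.18, adjusted p = 0.134). The kinase gene Ptk2b was at -0.84 (adjusted p = 0.180). Of the cytokines that induce CC chemokines, 5 of 14 were bright enough to be tested, 0 were called by limma, or 1 without Eph_EN tumour 2, and 2 had an unadjusted p under 0.05, Il1b lower and Osm higher (list median 0.45). Il1b, an inducer of Ccl2, read 333 and 162 units in Eph_EN and 144 and 106 in Eph_EN_DN tumours (-0.83, adjusted p = 0.289). Osm, oncostatin M, was at 0.66 (adjusted p = 0.371), and Csf2, which had no unadjusted p under 0.05, at 0.81.

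Among 19 NF-kB and Toll-like receptor genes limma called 0, and 3 had an unadjusted p under 0.05, all lower. Their median was -0.01, and Nfkbiz was at -0.51 and Myd88 at -0.49. Of 12 AP-1 subunits limma called 0 and 1 had an unadjusted p under 0.05, with Jund at -0.59 and Fosb at -0.66. Of all 13331 genes 658 were lower and 648 higher at that threshold, so 1 of 12 lies close to the share over all genes. Jun itself read 132 and 128 units in Eph_EN and 154 and 110 in Eph_EN_DN tumours. No source used here says whether its probes read the TAM67 transcript, so Jun checks nothing about the labels.

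Markers of cells that make or follow CC chemokines were read on the same arrays. Of all 13331 genes tested, 47.8% had negative differences. At an unadjusted p under 0.05, 658 of them were lower and 648 higher. Of 19 macrophage genes 16 had negative differences (median -0.40), limma called 0 (4 without Eph_EN tumour 2, and 1 with a pseudocount of 64 or with the dimmest 60% left out), and 6 had an unadjusted p under 0.05, all lower. Their summed intensity was 25668 and 21501 units in Eph_EN and 17706 and 14279 in Eph_EN_DN tumours, with Lyz2, lysozyme, at -0.88 and C1qb at -0.82. Of the defining markers, Csf1r read 2341 and 2609 units in Eph_EN and 2129 and 1498 in Eph_EN_DN tumours, Adgre1 617 and 562 against 579 and 454, and Cd68 258 and 236 against 199 and 193. Macrophage markers were thus present in all 4 tumours and lower in sum in both Eph_EN_DN tumours, beside Ccl8 at -0.98 and Ccl2 at -0.44. Their part in the chemokine differences was not tested.

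Of 12 fibroblast genes 10 were negative (median -0.51), 0 were called by limma, or 4 without Eph_EN tumour 1, and 7 had an unadjusted p under 0.05, all lower. They summed to 21683 and 28735 units in Eph_EN and 18790 and 17032 in Eph_EN_DN tumours, and Lum was at -1.07 and Thy1 at -0.96. All 6 endothelial genes tested were negative (median -0.55, 3 with an unadjusted p under 0.05), with sums of 640 and 907 against 489 and 558 units. Limma called 0 of the 6, or 1 without Eph_EN tumour 1. The gene Cdh5, a junction protein of endothelium, was at -0.74 and Eng at -0.70, while of the other defining markers Kdr was at -0.19 and Pecam1 was under the filter. Of the defining fibroblast markers Col1a1 was at -0.73 and Pdgfra at -0.32, and Dcn was at 0.27. Their part in the chemokine differences was not tested either.

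Epithelial markers were present, and their signal cannot be split between graft and host. Krt8 read 2048 and 2017 units in Eph_EN and 1596 and 1470 in Eph_EN_DN tumours. Krt18 read 715 and 1096 units against 683 and 691, and Epcam 307 and 246 against 226 and 248. The summed epithelial signal was 3575 and 3819 against 2951 and 3210 units. The basal keratins went opposite ways, with Krt14 at 0.67 and Krt5 at -0.63, and neither passed. T cell, NK cell, dendritic cell, neutrophil and mast cell lists had 0 genes called by limma out of 4, 5, 7, 9 and 5 tested, with 0, 0, 2, 1 and 0 at an unadjusted p under 0.05. Without Eph_EN tumour 2, 1 neutrophil gene was called. The largest differences were Cd4 at -0.45 and Cd3e at 0.44, Prf1 at -0.80 and Gzmb at 0.27, Zbtb46 at 0.80 and Itgax at -0.55, Lcn2 at -0.78 and S100a9 at -0.23, and Kit at -0.54 and Tpsb2 at -0.40, in the same order. Of the other defining markers tested, Flt3 of dendritic cells was at -0.09, S100a8 and Csf3r of neutrophils at -0.07 and -0.21, Ncr1 and Klrd1 of NK cells at 0.03 and -0.08 and Cpa3 of mast cells at 0.06. Cd3g and Cd3d of T cells, Mcpt4 of mast cells and Cd79a and Ms4a1 of B cells were under the filter. Only 1 B cell gene was tested (Pax5, 0.68). No eosinophil marker, Prg2 and Siglecf included, was bright enough to be tested, and Epx read 12.6 and 0.628 units in Eph_EN and 5.53 and 34.8 in Eph_EN_DN tumours. Adipocyte genes went the other way, with sums of 469 and 316 units in Eph_EN and 864 and 4341 in Eph_EN_DN tumours. The adipocyte genes Fabp4 (2.47) and Adipoq (2.33) were called higher, as was the muscle gene Myh1 (1.39). Without Eph_EN_DN tumour 2 limma called 0 genes of either list, and the adipocyte median went from 2.02 to 1.06. Adipocyte calls were also 0 with quantile normalization, median centring, probe sets averaged or kept separate and robust variance. They were 0 too without the intensity trend and with the replicate block. Muscle calls were 0 with probe sets averaged, without the intensity trend and with the replicate block. The muscle gene Acta1 was at 0.19, and Ckm and Myh4 were not called.

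**Figure D4:**
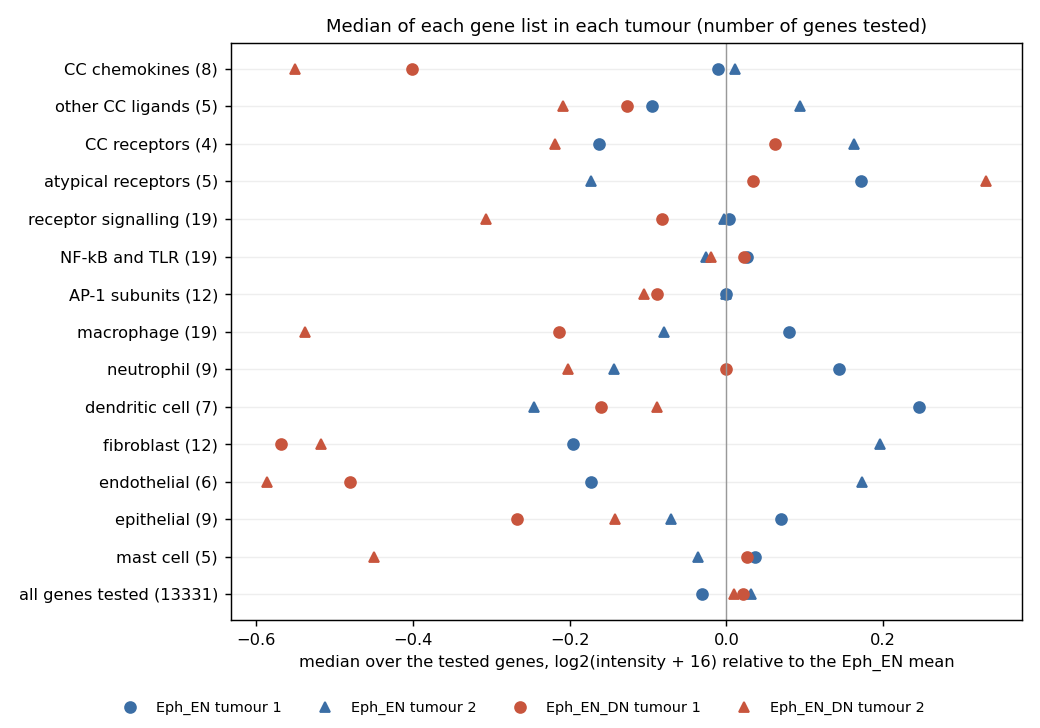
Median over the tested genes of the lists shown, in each tumour, as log2(intensity + 16) relative to the Eph_EN mean of each gene. Circles mark tumour 1 and triangles tumour 2 of a group. Not every list is drawn. The median differences, Eph_EN_DN minus Eph_EN, of those left out were 0.45 (inducing cytokines), 0.00095 (T cells), 0.009 (NK cells), 0.68 (B cells), 2.02 (adipocytes) and 0.22 (skeletal muscle). CC chemokines lie at -0.40 and -0.55 in the Eph_EN_DN tumours, beside macrophage, fibroblast and endothelial genes, and all genes lie near 0.

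Array levels were somewhat higher in both Eph_EN_DN tumours, with medians of 35.6 and 35.9 units in Eph_EN and 38.1 and 40.8 in Eph_EN_DN tumours. With each array centred on its median, the median difference of all genes went from 0.02 to -0.08. Ratios of 3' to 5' signal were 1.11 and 1.19 for beta-actin in Eph_EN against 1.31 and 1.34 in Eph_EN_DN tumours, and mean signal of 18S ribosomal RNA was 31.2 and 78.7 units against 114 and 168. These signs of RNA quality moved with the group, and their part in the chemokine differences was not tested. The labels number the tumours but do not say whether each grew in a mouse of its own. The p-values thus cover only the spread between the 4 arrays, and that spread may be technical.

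**Figure D5:**
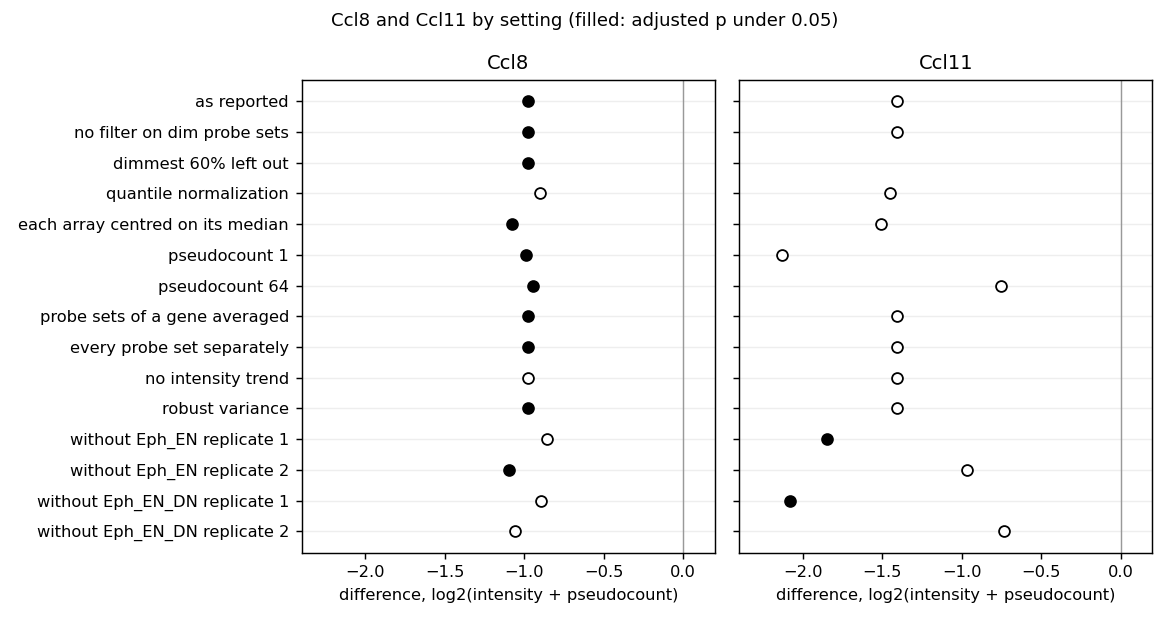
Difference of Ccl8 (left) and Ccl11 (right) as reported and with other settings or arrays left out, Eph_EN_DN minus Eph_EN on the log2 scale with the pseudocount of that fit. Filled points passed an adjusted p of 0.05. The limma fit with the replicate block is not drawn. In it neither Ccl8 (adjusted p = 0.218) nor Ccl11 (adjusted p = 0.483) passed. Ccl8 stays between -1.10 and -0.86 while its call comes and goes, and Ccl11 runs from -2.13 to -0.73 and passes only without Eph_EN replicate 1 or without Eph_EN_DN replicate 1; Ccl11 was not tested with the dimmest 60% left out.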

How the data were processed

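The authors deposited a linear intensity per array for 45101 probe sets. The sources used here do not give how probes were summarised, corrected for background or scaled. RNA was extracted with Trizol and labelled with biotin, per the labels' protocols. Probe sets were named through GEO's platform annotation, in which 34945 of the 45037 that are not controls had 1 symbol, 932 several and 9160 none, and the RefSeq table of GRCm38.p6 changed 0 of the names. The 64 controls and the dimmest 40% by mean log2(intensity + 16) were left out, which kept 27022, and the probe set of a gene with the highest mean was tested. The pseudocount of 16 understates changes of dim genes.

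Groups were compared over all genes with limma 3.58.1 in R 4.3.3 (lmFit, then eBayes with the variance following intensity; two-sided tests; Benjamini-Hochberg adjusted p under 0.05), after the fit was tested on simulated data. Second probe sets were taken from a fit of every probe set, and dim genes from a fit without the filter. The number of arrays limits the precision. Summed intensities use the brightest probe set of each gene. Members, gene lists and letters searched were chosen with earlier results of these data known. Members and genes of the CC ligand, CC receptor and atypical receptor lists were all to be named, and from other lists the genes past the threshold, or the 2 with the largest difference, and the first 3 markers of each cell type. Genes without a probe set of their own were not analysed here. Alternatives were other filters, scalings, pseudocounts, probe set rules, variance models and thresholds, the replicate block and each array left out. Figures were drawn with matplotlib 3.10.9.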

Additional observations from a re-analysis of the deposited data

How the results depend on the processing

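Each fit that left out an array took the spread of the remaining tumour of that group from the other group. The 8 tested CC chemokine genes were all negative in every fit that tested them, save that Ccl9 ran from -0.45 to 0.15 with single arrays left out. Fits that changed only the variance model reused the same differences, so the sign could not change in them. Of these genes 1 passed, and 0 passed with quantile normalization, without the intensity trend, with the replicate block and at an adjusted p threshold of 0.01. With 1 array left out, 0 to 1 passed, and the gene was not always the same: it was Ccl8 without Eph_EN tumour 2, Ccl11 without Eph_EN tumour 1 or Eph_EN_DN tumour 1, and none without Eph_EN_DN tumour 2. Their median of -0.43 was -0.52 with each array centred on its median, -0.32 with a pseudocount of 64, and -0.55 to -0.40 with single arrays left out. Over all genes, 74 passed (18 higher and 56 lower), against 38 with quantile normalization, 35 with probe sets averaged, 5 without the intensity trend, 11 with the replicate block, 17 at a threshold of 0.01, and 22 to 151 with single arrays left out. With median centring the split was 7 higher and 48 lower. The labels use tumour numbers 1 and 2 for each group without saying that equal numbers belong together. Deviations of same-numbered tumours from their group means correlated at -0.06 across genes, and with the replicate block, which cannot alter a difference in this design, Ccl8 had an adjusted p of 0.218. The cause of these changes was not tested. The median of CC receptor genes (-0.20) was 0.06 without Eph_EN_DN tumour 2 and 0.23 with the dimmest 60% left out, and that of other CC ligands (-0.21) was 0.12 without Eph_EN tumour 2 and 0.08 with probe sets averaged. Signal near or below the array medians limits Ccl3, Ccl11 and Ccl20, and most receptors.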
